A study of Drosophila melanogaster with 4 samples.

Results

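The 31 genes described here form a hand-chosen set of synaptic vesicle, active zone, transmitter and pan-neuronal genes, read across 4 libraries of fly heads as a measure of their neuronal RNA. They are the rows of a gene-level expression table of 16680 genes whose name was exactly one of 34 listed names. The remaining 3 names, n-syb, endoA and synj, were found only as nSyb, EndoA and Synj, the spellings that RefSeq gives these genes, and their values stand beside the set without being counted in it. Values are FPKM, fragment numbers scaled to transcript length and to the mapped reads of the library, so levels of different genes can be compared per length. The libraries were 2 biological repeats from flies without phenotype and 2 from flies with phenotypic variations of the eye, each made from mRNA of 10 pooled heads of adult males. All flies were the progeny of parents fed hexavalent chromium, Cr(VI), and all carried Kr[If-1], a dominant gain-of-function allele of Krüppel that is expressed in the ventral eye disc and makes eye development sensitive to a loss of robustness. The allele came in a stock that also carries the body colour allele b[1], and the methods keep the flies on the chromium food throughout direct exposure experiments, without saying whether these heads came from one. The comparison is therefore between progeny with and without an eye phenotype after the same parental exposure, and no library of unexposed flies was analysed here.

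Neurons signal by fusing vesicles filled with transmitter with the membrane of the presynaptic terminal. Calcium enters through channels at the active zone and binds synaptotagmin, and the SNARE proteins syntaxin, SNAP-25 and synaptobrevin then drive fusion. The vesicle membrane is taken up again by endocytosis and refilled by transporters that are specific for glutamate, acetylcholine or GABA. Most of these genes are transcribed in nearly all neurons, and the vesicular transporters in neurons of 1 transmitter type. The fly head holds the brain and the photoreceptors of the compound eye, which are neurons too.

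All 31 genes were well expressed in every library. Their mean levels ran from 21.7 FPKM for elav to 447 FPKM for cpx, with a median of 69.9 FPKM against 16.2 FPKM over the 10194 genes tested, those whose mean reached 1 FPKM. For elav, which codes for an RNA-binding protein and is the usual marker of neurons, values were 20.6 and 21.9 FPKM (no phenotype) against 23.2 and 21.1 FPKM (phenotype). The order of mean levels began with cpx, nrv3, Gad1, Sap47, shi and Syt1. Of these, cpx and nrv3 had overlapping values over the 4 libraries, as did Sap47, shi and Syt1, while Gad1 stood apart from both groups. The same table also held eye tissue, with the rhodopsin gene ninaE at 773 and 544 FPKM (no phenotype) against 948 and 665 FPKM (phenotype). The submitters' design text mentions ovaries. Of 14 germline genes listed, 11 had a mean under 1 FPKM, among them vas at 0.26 to 0.48 FPKM and osk at 0.01 to 0.08 FPKM. The other 3 were grk at 24.2 to 28.5 FPKM, slightly above elav, orb at 3.35 to 4.18 FPKM and piwi at 1.12 to 2.04 FPKM.

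**Figure D1:**
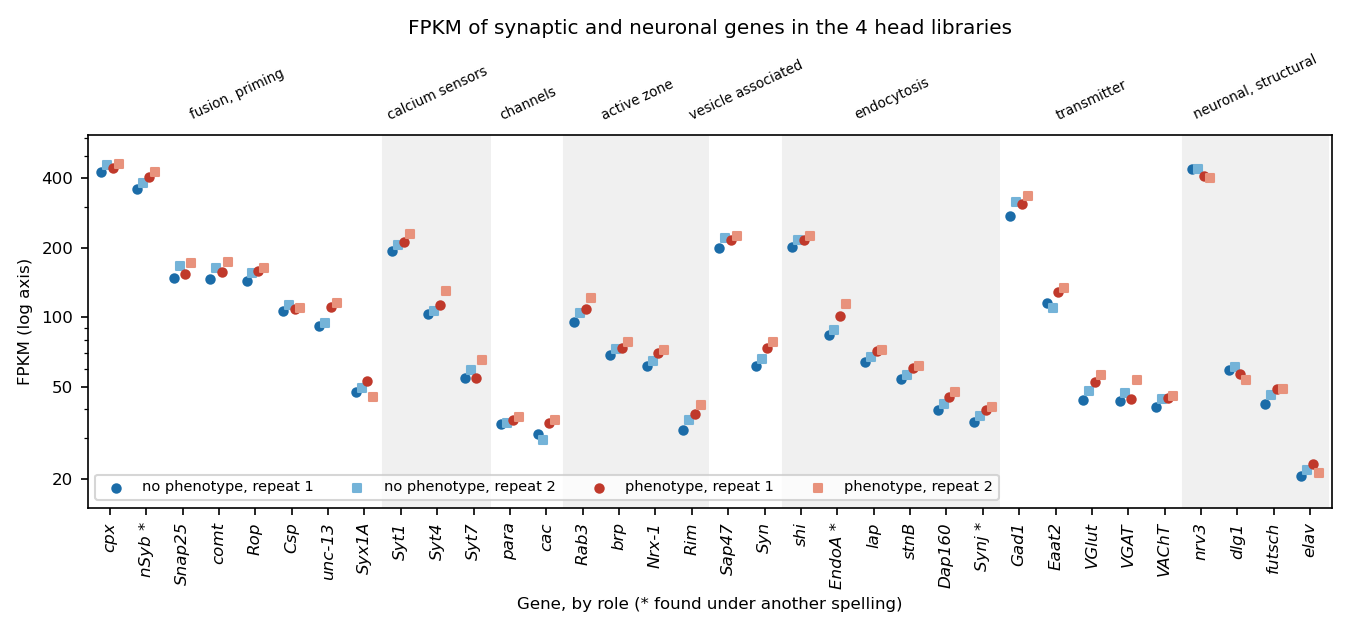
FPKM (log axis) of the 31 genes and of the 3 genes found under another spelling (asterisks) in each of the 4 libraries, grouped by role. Circles are repeat 1 and squares repeat 2, blue without and red with phenotype. Levels span 20.6 to 461 FPKM between genes, while the 4 points of a gene of the set lie within 1.28-fold of each other.

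Mean levels of the neuronal and synaptic transcripts lay close together in heads with and without phenotype. The mean with phenotype differed from the mean without by between -8.11% for dlg1 and 21.3% for unc-13, and the highest library of a gene was 1.06-fold to 1.28-fold above its lowest. None of the 31 genes passed the test across genes (limma on log2(FPKM + 1), Benjamini-Hochberg adjusted over 10194 genes, threshold 0.1; adjusted p from 0.18 to 0.96), where 0.0883% of all genes passed. Without adjustment, 3 of 31 (9.68%), unc-13, Syn and cac, had a limma p under 0.05, against 22.7% of all genes tested. The fold change was above 0 for 28 of the 31 and below 0 for 3. Over all 10194 genes tested it was above 0 for 6396 and below 0 for 3798. The median log2 fold change of the set was 0.11 (all genes tested, 0.070). The pair of libraries with phenotype exceeded the pair without in 18 of 31 genes (58.1%), where 41.3% of all genes did. It lay below in 2 of 31 (6.45%), nrv3 and dlg1, where 18.3% of all genes did. With 2 libraries a group, 0.333 is the smallest two-sided p that exact permutation allows, and the labels do not say whether the repeats came from separate crosses. In bulk heads, a difference in the number of neurons and a difference in RNA per neuron cannot be told apart.

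The sum over the 31 genes was 3485 and 3719 FPKM in repeats 1 and 2 without phenotype and 3728 and 3912 FPKM with phenotype. As a share of all FPKM of a library this was 0.573% and 0.636% without and 0.642% and 0.659% with phenotype. The groups did not overlap, but repeat 2 without and repeat 1 with phenotype were nearly level, and the largest step was between the repeats without phenotype. Repeat 1 without phenotype was the lowest library for 26 of the 31 genes (in Syt7 tied with repeat 1 with phenotype), and repeat 2 with phenotype was the highest for 25. The shares of all genes lowest or highest in these libraries were not computed. Repeat 2 was above repeat 1 in 29 genes (93.5%) without and in 26 genes (83.9%) with phenotype. Over all genes tested, these shares were 60.7% and 60.2%. The median log2 step from repeat 1 to repeat 2 was 0.09 without phenotype (all genes tested, 0.044) and 0.053 with phenotype (0.037). Each gene of the set divided by its own mean gave a median of 0.927 and 0.997 without and 1.01 and 1.07 with phenotype. Over all 10194 genes tested the same medians were 0.951 and 0.979 without and 1.01 and 1.04 with phenotype, so the libraries stood in the same order for genes at large.

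**Figure D2:**
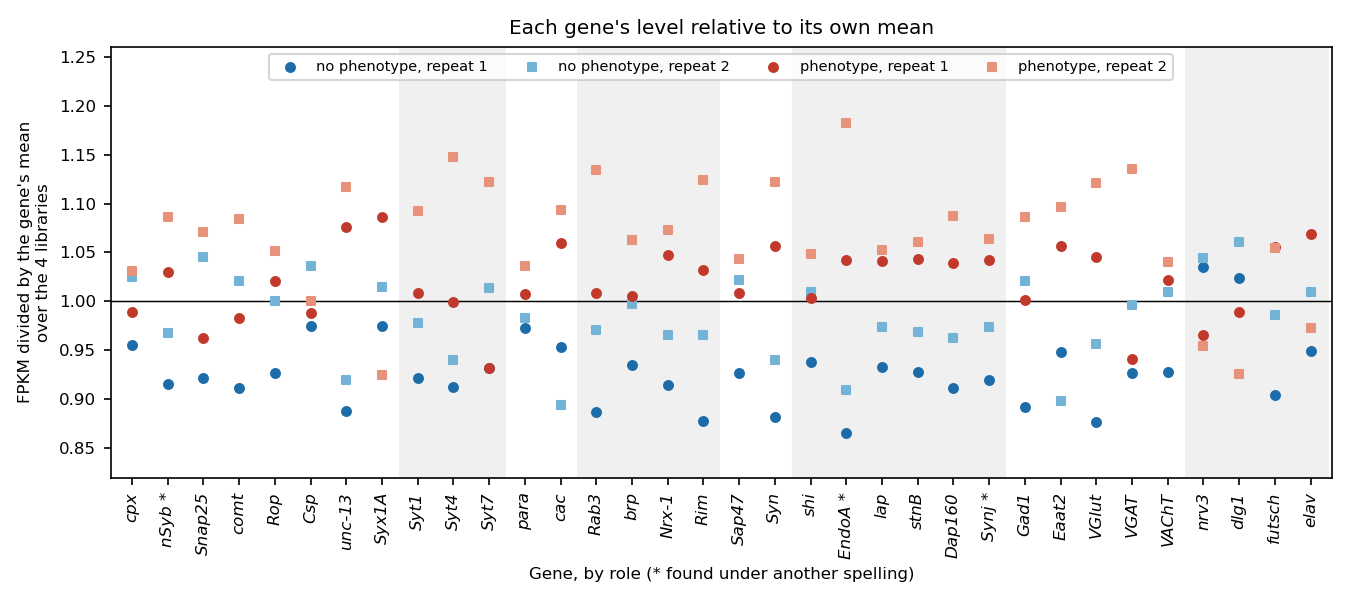
FPKM of each gene divided by its mean over the 4 libraries, with genes grouped by role in the same order as in the plot of levels and asterisks for genes found under another spelling. Dark blue circles (repeat 1 without phenotype) lie lowest in 26 of the 31 genes and light red squares (repeat 2 with phenotype) highest in 25, while nrv3 and dlg1 show the opposite order of the groups. Medians over all genes tested stood in the same order of libraries, and the matching shares of all genes were not computed.

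Because the libraries differed in this general way, the fold changes were also computed after each library was divided by its median ratio, the median over genes of the ratio to the geometric mean of the 4 libraries (0.955 and 0.983 without, 1.01 and 1.05 with phenotype). The median log2 fold change of the set was then 0.019, with all genes tested at -0.010. The fold change was above 0 for 20 of 31 genes and below 0 for 11. Over all 10194 genes tested it was then above 0 for 4870 and below 0 for 5324. The difference between the median of the set and that of all genes was 0.035 before and 0.029 after rescaling. The 8 genes that turned from above to below 0 were Syx1A, Snap25, cpx, Syt7, para, Sap47, shi and elav. After rescaling, 14 of 31 genes were higher in both libraries with phenotype (28.6% of all genes), and all 14 were among the 18 before. They were unc-13, Syt1, Syt4, cac, Rim, Rab3, Nrx-1, Syn, lap, Dap160, stnB, VGlut, Eaat2 and futsch. Lower in both were cpx, Csp, para, nrv3 and dlg1, 5 of 31 (30.0% of all genes). No gene of the set passed the test on this scale, and 0 of 31 had an unadjusted p under 0.05 from limma (20.5% of all genes). Leaving out repeat 1 without phenotype, the lowest library, gave a median of 0.051 for the set and 0.056 for all genes on FPKM as deposited. Without repeat 2 of that group the medians were 0.16 and 0.090, and without repeat 1 with phenotype 0.16 and 0.089.

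**Figure D3:**
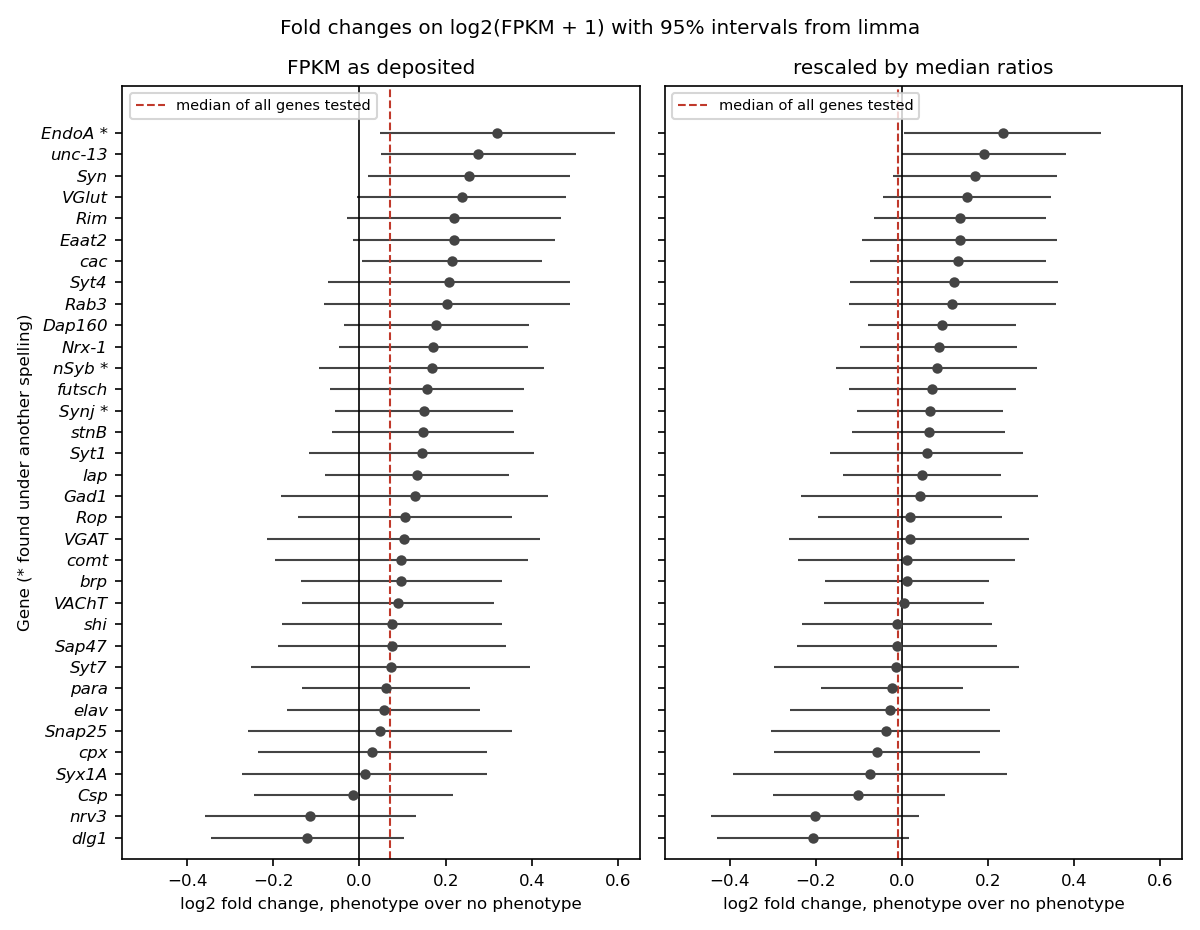
Log2 fold change of phenotype over no phenotype on log2(FPKM + 1), with the 95% interval from limma, for the 31 genes and the 3 found under another spelling (asterisks). The left panel shows FPKM as deposited and the right panel libraries rescaled by median ratios, with the median of all genes tested as a dashed line (0.070 and -0.010). The genes of the set keep nearly the same order, from unc-13 and Syn to nrv3 and dlg1, and 8 of the set cross 0 between the panels. EndoA, found under another spelling, lies above unc-13 in both panels.

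The genes of vesicle fusion and priming held the largest share of the summed FPKM, 31.7% to 32.3% over the libraries. unc-13, which codes for the priming factor that opens syntaxin for SNARE assembly, had the largest fold change of the set. It was at 91.5 and 94.9 FPKM (no phenotype) against 111 and 115 FPKM (phenotype) (log2 fold change 0.28, 95% interval 0.051 to 0.50, adjusted p = 0.18 from limma). The gap between the groups was wider than that between repeats, and on rescaled libraries the fold change was 0.19 and the groups still did not overlap. unc-13 lies on the small chromosome 4 (chr4:867824-912331 in BDGP6), and 15.6% of its exonic bases are shared with the antisense RNA asRNA:CR43425. cpx, the gene of complexin, which clamps SNARE complexes until calcium arrives, was the most abundant gene of the set, at 427 and 458 FPKM (no phenotype) against 442 and 461 FPKM (phenotype). Its groups overlapped (log2 fold change 0.029, 95% interval -0.24 to 0.30), and it turned to -0.057 on rescaled libraries.

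The other fusion genes differed less between the groups than unc-13. Rop, the fly Munc18, which binds syntaxin, was at 144 and 155 FPKM (no phenotype) against 158 and 163 FPKM (phenotype), and comt, the NSF ATPase that takes used SNARE complexes apart, was at 146 and 164 FPKM (no phenotype) against 158 and 174 FPKM (phenotype). The groups overlapped for comt, and for Rop only on rescaled libraries. Log2 fold changes were 0.11 for Rop (0.019 rescaled) and 0.10 for comt (0.011 rescaled). The membrane SNAREs overlapped between the groups. Snap25 was at 148 and 168 FPKM (no phenotype) against 154 and 172 FPKM (phenotype) and Syx1A, the syntaxin, at 47.4 and 49.4 FPKM (no phenotype) against 52.9 and 45.0 FPKM (phenotype). In Snap25 repeat 2 was above repeat 1 in both groups by more than the groups differed, and in Syx1A the libraries with phenotype were both the highest and the lowest. Csp, the cysteine string protein that folds SNAP-25 as a chaperone, was at 107 and 113 FPKM (no phenotype) against 108 and 109.6 FPKM (phenotype), with the narrowest range of the set. The vesicle SNARE nSyb, matched by its other spelling, was at 360.4 and 381 FPKM (no phenotype) against 405 and 428 FPKM (phenotype), without overlap (log2 fold change 0.17, 0.081 rescaled, adjusted p = 0.36 from limma).

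Of the synaptotagmins, Syt1 and Syt4 were higher in both libraries with phenotype, before and after rescaling, and neither passed the test. Syt1, the calcium sensor of fast release, was at 194 and 206 FPKM (no phenotype) against 212 and 229.8 FPKM (phenotype) (log2 fold change 0.15, 95% interval -0.12 to 0.41). Syt4, a synaptotagmin of postsynaptic and vesicular membranes, was at 103 and 106 FPKM (no phenotype) against 113 and 129.8 FPKM (phenotype) (log2 fold change 0.21, 95% interval -0.073 to 0.49), where repeat 2 with phenotype stood apart from the 3 other libraries. Syt7, a calcium sensor with high affinity, was at 54.4 and 59.1 FPKM (no phenotype) against 54.4 and 65.5 FPKM (phenotype). Its 2 repeat 1 libraries had the same value, so for Syt7 the repeats differed more than the groups.

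Of the channel genes, cac had the higher fold change, and its difference from para was not tested. cac, the gene of the calcium channel of the active zone, was at 31.3 and 29.3 FPKM (no phenotype) against 34.7 and 35.9 FPKM (phenotype) (log2 fold change 0.22, 95% interval 0.006 to 0.42, adjusted p = 0.21 from limma). Its interval excluded 0 as deposited but not on rescaled libraries, where the log2 fold change was 0.13. para, the voltage-gated sodium channel of action potentials, was at 34.6 and 35.0 FPKM (no phenotype) against 35.8 and 36.9 FPKM (phenotype). Its 4 values lay within 1.07-fold of each other, the groups just failed to overlap, and the direction turned on rescaled libraries (0.061 as deposited, -0.023 rescaled). Both are large X-linked genes, cac at chrX:11931280-11985087 and para at chrX:16455027-16533096, with 18 annotated transcripts for cac and 60 for para.

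All 4 active zone genes were higher in both libraries with phenotype as deposited (41.3% of all genes), and all but brp remained so on rescaled libraries (28.6% of all genes). With 4 genes these counts say little of the group. brp, Bruchpilot, the main protein of the electron-dense T-bar and a common synapse marker, was at 68.7 and 73.2 FPKM (no phenotype) against 73.9 and 78.0 FPKM (phenotype) (log2 fold change 0.10, 95% interval -0.14 to 0.33, 0.011 rescaled). Its repeat 2 without and repeat 1 with phenotype were almost equal. Rim, a scaffold that tethers calcium channels and vesicles, was at 32.6 and 35.8 FPKM (no phenotype) against 38.3 and 41.7 FPKM (phenotype), and Rab3, the small GTPase of synaptic vesicles, at 95.4 and 104.3 FPKM (no phenotype) against 108 and 122 FPKM (phenotype). Nrx-1, the neurexin that joins the 2 sides of the synapse, was at 61.3 and 64.8 FPKM (no phenotype) against 70.3 and 72.0 FPKM (phenotype). Log2 fold changes of Rim, Rab3 and Nrx-1 were 0.22, 0.20 and 0.17, with adjusted p of 0.25, 0.32 and 0.29 from limma. The active zone genes made up 7.40% and 7.48% of the summed FPKM of the set without and 7.80% and 8.01% with phenotype.

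Of the vesicle-associated genes, Syn had the higher fold change, and its difference from Sap47 was not tested. Syn, the gene of synapsin, which ties vesicles into the reserve pool, was at 61.7 and 65.7 FPKM (no phenotype) against 73.9 and 78.5 FPKM (phenotype) (log2 fold change 0.26, 95% interval 0.02 to 0.49, 0.17 rescaled, adjusted p = 0.2 from limma). It had the second-largest fold change of the set, with no overlap on either scale. Syn lies at chr3R:10190689-10222442, and 4.29% of its exonic bases are shared with Timp, a gene on the opposite strand that lies within the span of Syn. Sap47, a synapse-associated protein gene, was at 199.8 and 220.3 FPKM (no phenotype) against 217 and 225 FPKM (phenotype), with overlap and a log2 fold change of 0.075 (-0.011 rescaled).

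The endocytosis genes were higher with phenotype without overlap in 3 of 4, the exception being shi, where 41.3% of all genes were. shi, the dynamin that pinches vesicles off, was at 202 and 217 FPKM (no phenotype) against 216 and 225 FPKM (phenotype), with overlap between the groups and a log2 fold change of 0.076 (-0.011 rescaled). lap, the AP180 clathrin adaptor, was at 64.3 and 67.1 FPKM (no phenotype) against 71.7 and 72.5 FPKM (phenotype), and Dap160, the intersectin scaffold, at 39.7 and 41.9 FPKM (no phenotype) against 45.3 and 47.4 FPKM (phenotype). Log2 fold changes were 0.13 for lap and 0.18 for Dap160, and both stayed free of overlap on rescaled libraries (0.047 and 0.093). stnB, stonin, an adaptor that recovers synaptotagmin, was at 53.8 and 56.2 FPKM (no phenotype) against 60.5 and 61.5 FPKM (phenotype). stnA had identical values in all 4 libraries, and all exonic bases of stnB are shared with stnA in the annotation, so stnA and stnB are 1 measurement. EndoA, endophilin, which was matched by its other spelling, was at 83.9 and 88.1 FPKM (no phenotype) against 101 and 115 FPKM (phenotype), and its log2 fold change of 0.32 (0.23 rescaled, adjusted p = 0.19 from limma) was larger than that of any gene of the set. Synj, synaptojanin, a lipid phosphatase that removes the clathrin coat, also matched by its other spelling, was at 35.2 and 37.3 FPKM (no phenotype) against 39.9 and 40.7 FPKM (phenotype), without overlap (0.15 as deposited, 0.066 rescaled).

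Of the transmitter genes, VGlut and Eaat2 had the largest fold changes, and VAChT, Gad1 and VGAT lay closer to 0. The differences between these genes were not tested. VGlut, the vesicular glutamate transporter, was at 43.8 and 47.9 FPKM (no phenotype) against 52.3 and 56.1 FPKM (phenotype) (log2 fold change 0.24, 95% interval -0.006 to 0.48, 0.15 rescaled, adjusted p = 0.23 from limma). VAChT, the vesicular acetylcholine transporter, was at 40.7 and 44.3 FPKM (no phenotype) against 44.9 and 45.7 FPKM (phenotype) (log2 fold change 0.089, 0.004 rescaled). It is nested in the ChAT locus and shares 8.54% of its exonic bases with ChAT, the enzyme gene of acetylcholine synthesis, listed as Cha, which was at 46.0 and 50.4 FPKM (no phenotype) against 49.6 and 52.5 FPKM (phenotype). On rescaled libraries Cha was at -0.003 on the log2 scale, so both cholinergic genes were near 0. Gad1, the GABA synthesis enzyme, was at 275 and 315 FPKM (no phenotype) against 309 and 336 FPKM (phenotype), and VGAT, the GABA transporter of vesicles, at 43.6 and 46.9 FPKM (no phenotype) against 44.2 and 53.4 FPKM (phenotype). Both overlapped between the groups, with repeat 2 above repeat 1 in each. Eaat2, a transporter of excitatory amino acids at the plasma membrane, was at 116 and 109.7 FPKM (no phenotype) against 129 and 134 FPKM (phenotype) (log2 fold change 0.22, 95% interval -0.014 to 0.45), higher in both libraries with phenotype on either scale. Unlike the vesicular transporters it does not mark neurons of 1 transmitter type, and whether its RNA came from neurons or glia was not tested.

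The pan-neuronal and structural genes had a summed level as deposited that was lower with phenotype, at 559 and 570.3 FPKM without and 538 and 527 FPKM with phenotype, and nrv3 accounted for most of that sum. nrv3, a beta subunit of the sodium pump of neurons, was at 438 and 441 FPKM (no phenotype) against 408 and 404 FPKM (phenotype) (log2 fold change -0.12, 95% interval -0.36 to 0.13, -0.20 rescaled). dlg1, Discs large, a scaffold of the postsynapse and also of epithelial septate junctions, was at 58.9 and 61.0 FPKM (no phenotype) against 56.9 and 53.3 FPKM (phenotype) (log2 fold change -0.12, 95% interval -0.34 to 0.10, -0.21 rescaled). Both were lower in both libraries with phenotype on either scale, and neither passed the test (adjusted p = 0.48 and 0.42 from limma). futsch, the microtubule-associated protein of axons and terminals, went the other way, at 42.1 and 45.9 FPKM (no phenotype) against 49.1 and 49.1 FPKM (phenotype) (log2 fold change 0.16, 0.071 rescaled). elav overlapped between the groups, with a log2 fold change of 0.056 as deposited and -0.027 rescaled (95% interval -0.17 to 0.28 as deposited). Among the exonic bases of elav, 27.9% are shared with the noncoding RNA lncRNA:enrr.

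Synaptic and neuronal genes outside the set had like medians. Of 53 other synaptic genes listed, among them stnA, 51 were matched and all 51 were tested. None passed (0 at an adjusted p under 0.1 from limma). An unadjusted p under 0.05 from limma was found for 5 of the 51, against 22.7% of all genes tested. Their median log2 fold change was 0.11 (0.027 rescaled), and 26 (51.0%) were higher and 3 (5.88%) lower without overlap, against 41.3% and 18.3% of all genes. Among them the highest fold change was that of Rph, rabphilin, a Rab effector of vesicles, at 13.1 and 13.2 FPKM (no phenotype) against 16.2 and 17.6 FPKM (phenotype) (log2 fold change 0.34, limma adjusted p = 0.15), and alphaSnap, the adaptor of NSF, was the most abundant, at 175 and 179 FPKM (no phenotype) against 187 and 206 FPKM (phenotype). AP-2mu, an endocytic adaptor subunit, had the lowest fold change (-0.16), with overlap. Of 39 other neuronal genes, all were tested and none passed. An unadjusted p under 0.05 from limma was found for 9 of the 39, near the 22.7% of all genes. Their median was 0.11 (0.021 rescaled), with 21 (53.8%) higher and 5 (12.8%) lower without overlap. nrv2, the sister gene of nrv3, which glia also express, was both the most abundant and the one with the lowest fold change of that list, at 312 and 305 FPKM (no phenotype) against 262 and 217 FPKM (phenotype) (log2 fold change -0.37, limma adjusted p = 0.2). jeb, the ligand of the receptor Alk, had the highest, at 14.8 and 17.3 FPKM (no phenotype) against 19.9 and 20.9 FPKM (phenotype) (log2 fold change 0.33).

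Other cell types of the head did not stand in the same order over the libraries. The counts without overlap below compare with 41.3% higher and 18.3% lower over all genes tested. Of 16 glial markers, 4 (25%) were higher and 4 (25%) lower without overlap, with a median log2 fold change of -0.10, and their sum was 1857 and 1815 FPKM without and 1882 and 1522 FPKM with phenotype. repo, the transcription factor that defines glia, was at 20.7 and 21.9 FPKM (no phenotype) against 23.6 and 23.1 FPKM (phenotype), without overlap and with a log2 fold change of 0.13 (0.043 rescaled). It was among 5 glial markers with a fold change above 0, while 11 were below 0 (all 10194 genes tested, 6396 and 3798). Of 20 photoreceptor markers, 6 (30.0%) were higher and 0 lower without overlap (median 0.14), and their sum was 2305.5 and 1860.4 FPKM without and 2936 and 2170.0 FPKM with phenotype, so repeat 1 was above repeat 2 in both groups, where the 31 genes mostly had repeat 2 above repeat 1. Of 19 muscle markers, 0 were higher and 15 (78.9%) lower without overlap (median -0.49), and their sum went from 9579 and 8831 FPKM without to 6870.2 and 6496 FPKM with phenotype. Of 9 cuticle and epidermis markers tested, 0 were higher and 5 (55.6%) lower without overlap (median -0.28), with a sum of 4596 and 4280.1 FPKM without and 3208 and 2282 FPKM with phenotype for all 11 listed. Fat body markers summed to 3821 and 2189 FPKM without and 4447 and 3950.4 FPKM with phenotype. Of 14, 7 (50%) were higher and 3 (21.4%) lower without overlap, and 1 in each direction passed the test. The gene to passed as higher, at 51.15 and 75.75 FPKM (no phenotype) against 976 and 984 FPKM (phenotype). Fbp2 passed as lower, at 46.3 and 57.9 FPKM (no phenotype) against 9.69 and 7.21 FPKM (phenotype). The sum therefore does not give the direction of single fat body markers. Hemocyte markers summed to 184 and 158 FPKM without and 184 and 153 FPKM with phenotype, with 1 (12.5%) higher and 1 (12.5%) lower of 8 tested. Digestive enzymes of the gut summed to 450.4 and 69.5 FPKM without and 93.9 and 259 FPKM with phenotype. FPKM are relative to the whole library, and the part that muscle, cuticle or the other markers had in the level of the 31 genes was not tested.

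**Figure D4:**
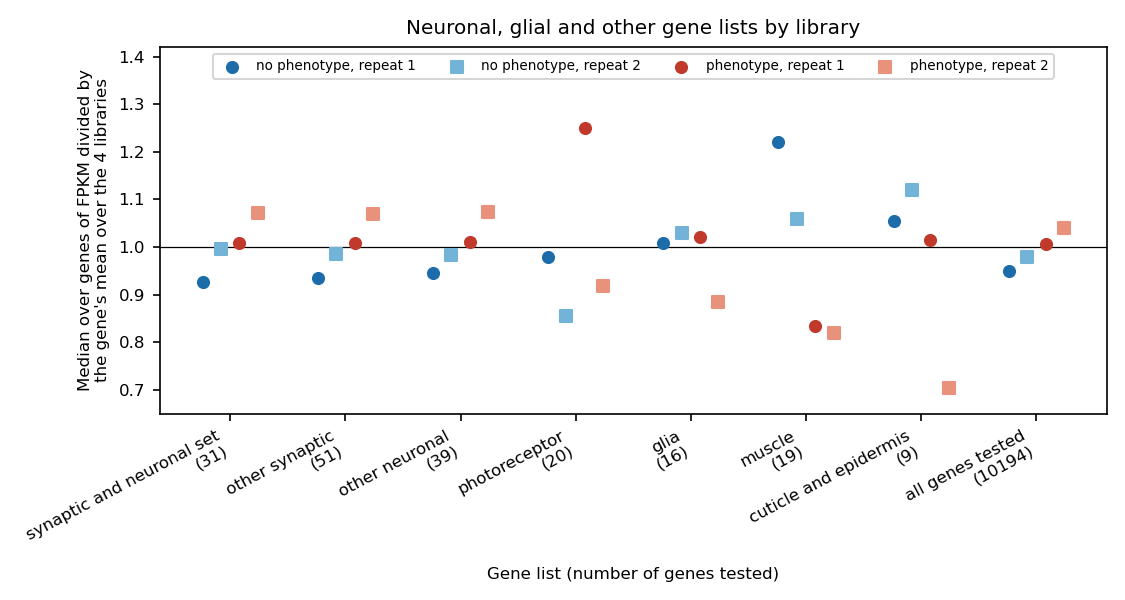
Median over the genes of each list of FPKM divided by the gene's own mean, by library, with the number of genes tested in parentheses. The synaptic and neuronal set (0.927 and 0.997 without, 1.01 and 1.07 with phenotype) and the 2 other neuronal lists lie close to the points of all genes tested, while photoreceptor, glial, muscle and cuticle markers are spread differently.

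The loci of the 31 genes, which the choice by name did not use, were mostly long, with a median span of 14668 bp (2638 bp for Rop to 225026 bp for Snap25) against 2738 bp over the tested genes with an annotation, and their longest transcripts had a median of 5660 bp against 1962 bp. No gene of the set had a longest transcript under 2000 bp. By chromosome, 8 lay on X, 5 on 2L, 3 on 2R, 4 on 3L, 9 on 3R and 2, unc-13 and Syt7, on 4. Of all genes tested, 38.8% were higher without overlap with longest transcripts under 2000 bp and 46.0% at 6000 bp or more. Whether transcript length bears on the comparison was not tested. The median log2 fold change was 0.064 for the 5131 genes with a longest transcript under 2000 bp and 0.080 for the 759 genes of 6000 bp or more. Of the 12 genes of the set with 6000 bp or more, 9 were higher without overlap (46.0% of the 759), and their median was 0.12. Between 2000 and 4000 bp, 4 of 10 were higher without overlap (42.7% of 3088 genes), and between 4000 and 6000 bp 5 of 9 (44.4% of 1101 genes). Repeats of a gene of the set lay close, with a median SD within groups of 0.061 on the log2 scale against 0.095 for all genes tested, and the size of the fold change had a median of 0.12 against 0.16.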

How the data were processed

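Single-end reads of 50 cycles from mRNA were mapped by the authors with Bowtie2 onto dm6 RefSeq mRNAs, and RSEM estimated abundance. A second build, dm3, appears in the submitters' processing notes with no stated use. Versions of these tools were not given in the sources used here. For each gene and library the authors deposited 1 FPKM value, to 2 decimals, so the number of reads is unknown and no counting interval was computed. The kit is not stated to keep strand. The authors' own test, EBSeq on RSEM output, was not run on FPKM.

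The 10194 genes whose mean reached 1 FPKM entered a limma fit (version 3.58.1, R 4.3.3) of log2(FPKM + 1) on group, with a trended eBayes prior. Two-sided p-values were adjusted by Benjamini-Hochberg over all of them, at a threshold of 0.1. The fit was also run on simulated data with larger changes than those of the set. That run does not show whether changes as small as those of the set could be found. Fold changes on this scale slightly understate those of genes with few FPKM. The members and lists were chosen with earlier results of these data known. Members could all be named, and of other lists the most abundant gene and those with the highest and lowest fold change. Names were matched by spelling, then through RefSeq symbols and synonyms, and positions come from Ensembl gene models on BDGP6 (dm6). Other genes named (ninaE, vas, osk, grk, orb, piwi, repo, Fbp2, Cha, stnA) bear on a result and were chosen after their values were seen. No sequence is shown, since no sequence file was used here. Alternatives were another pseudocount, filters, scalings, thresholds, limma without trend, a replicate block and leaving out each library. Python 3.11.15 was used for tables.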

Additional observations from a re-analysis of the deposited data

How the results depend on the processing

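No gene of the set passed the threshold under any alternative run: a pseudocount of 0.1, no filter, a filter of 5 FPKM, either scaling, limma without trend, a threshold of 0.05, the replicate block, or leaving out any 1 library (0 of 31 in each; lowest adjusted p from 0.18 to 0.63). The number of the 31 at an unadjusted p under 0.05 from limma was 3 (9.68%, against 22.7% of all genes tested). Under the alternatives with all 4 libraries it was 0 to 7. It was 0 with median ratios, where 20.5% of all genes had such a p, and for the others the share of all genes was not computed. With a replicate block, repeat number as a block, 0 of 31 and 0 of all genes passed. Repeat 2 minus repeat 1 correlated over genes at r = -0.13 between the groups. This r does not register a shift common to most genes. Repeat 2 was above repeat 1 in 60.7% of all genes tested without and 60.2% with phenotype. Whether repeats of the same number share a batch was not tested. With repeat 1 of either group paired with repeat 2 of the other, added after seeing the data, 0 of 31 and 404 of all genes passed. The count over all genes, 9, was 23 with a pseudocount of 0.1, 3 with no filter, 109 with a filter of 5 FPKM, 1 with median ratios, 21 when libraries were rescaled to an equal sum, 5 without trend, and 0 to 509 with 1 library left out (509 without repeat 1 and 142 without repeat 2 without phenotype, 0 without either library with phenotype). With 1 library left out, the lone library of its group is assumed to vary like the other group.

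The median log2 fold change of the set moved from 0.11 to 0.019 with median ratio scaling, which by construction takes out the general order of the libraries, and was 0.13 with equal sums. Without 1 library it ran from 0.051 to 0.16, and with the 3 genes of another spelling it was 0.13. The count of genes lower without overlap, 2 (18.3% of all genes), was 5 with median ratios (30.0% of all genes) and 1 with equal sums. The count of genes higher without overlap, 18 (41.3% of all genes), was 14 with median ratios (28.6% of all genes) and 19 with equal sums. Shares of all genes were not computed for equal sums. With 1 library left out it was 18 to 27, but fewer libraries separate more easily, so these counts do not compare with the others. Signs of single genes turned in 8 of 31 with median ratios, in 1 (Csp) with equal sums, and in 1 to 4 with 1 library left out. The number of libraries, 2 a group, limits the precision to the intervals given, and the depth behind them is unknown.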

Other observations

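Ratios between genes within a library do not depend on how libraries are scaled. The ratios below were chosen after their values were seen and carry no test. VGlut over VAChT, glutamate over acetylcholine transporter, was 1.08 and 1.08 without phenotype and 1.17 and 1.23 with phenotype. VGAT over VAChT was 1.07 and 1.06 without and 0.986 and 1.17 with phenotype, so the libraries with phenotype lay on both sides. Relative to elav, unc-13 was at 4.45 and 4.33 without and 4.79 and 5.46 with phenotype, and Syn at 2.996 and 3.001 without and 3.19 and 3.72 with phenotype. brp over elav was 3.34 and 3.34 without and 3.19 and 3.70 with phenotype, and Syt1 over elav was 9.42 and 9.39 without and 9.16 and 10.9 with phenotype, with overlap in both. nrv3 over cpx was 1.03 and 0.963 without and 0.923 and 0.876 with phenotype.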
